A study of Danio rerio with 8 samples.

Results

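Among 35117 annotated zebrafish genes, 39 were far more abundant in every library of FACS sorted EGFP positive cells than in whole embryos. These genes were chosen by that difference: each had at least 20 CPM (the count of a gene scaled to a common total of gene counts per library) in each of the 6 sorted libraries, and its lowest sorted CPM was at least 16 times the higher CPM of the 2 whole embryos. Of the 4700 genes with at least 20 CPM in each sorted library, 39 met the ratio, which is 0.83%. The difference between sorted cells and whole embryos is therefore given here as a description and was not tested. The gene table used gave a symbol for 38 of them, some in capitals as for the human gene, and these symbols are printed as listed.

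All libraries came from the Tg(fli1a:EGFP) line, written fli:GFP in the labels, whose green reporter is under the fli1a promoter, active in endothelium and also in neural crest derived cartilage and mesenchyme. The sorted libraries each started from 20000 GFP sorted cells at an age of 3 days, taken from dissociated embryos, and were A_1 and Q_1 of run 1 and A_2a, A_2b, Q_2a and Q_2b of run 2. The letter A stands for the RNAqueous micro kit, Q for the RNeasy plus micro kit, and a and b for technical replicates of 1 RNA, so that the 6 libraries hold 4 RNA samples. The whole embryos, A_unsorted and Q_unsorted, were 1 fli:GFP embryo per kit at an age of 5 days, sequenced with run 2. In the paper they had the RNA volume and amplification cycles of run 1, so these differed from the sorted libraries of run 2. Sorting, dissociation and age cannot be told apart in these data. The same holds for input and amplification in the sorted libraries of run 2, and for the sequencing run in those of run 1. Sorted cells were taken by their fluorescence from 1 pool of fish, and nothing in the labels says that the RNA samples came from separate animals, so p-values measure only the spread between these samples, which may be technical.

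The genes with the highest ratios included early response and heat shock genes. Of the 39 genes, 19 stood on lists of immediate early and AP-1 genes or of heat shock genes. Among the 4700 genes with at least 20 CPM in each sorted library, these lists held 44 and 23 genes in the same order. The lists were chosen with earlier results of these data known, so the count of 19 is description only and was not tested. Immediate early genes such as the FOS, JUN, EGR and IER2 families are switched on within minutes of a stimulus without new protein synthesis, and many of their products are transcription factors. FOS and JUN family proteins pair through leucine zippers to form AP-1, and JDP2 and ATF3 are related proteins that pair with the same partners. Heat shock genes encode chaperones that hold and refold damaged proteins, and are driven by heat shock factor. Both programmes are known from cells under mechanical, thermal or chemical stress, in many tissues.

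For description the 39 genes were put into 5 groups by known role, after their values had been seen. The groups were AP-1 and its partners with 8 genes, other early response genes with 8, chaperones with 7, signalling, receptor and matrix genes with 11, and 5 others. Gene counts per library ranged from 10763174 in Q_1 to 19537939 in Q_unsorted, so that 3 counts, the smallest level taken as measurable, corresponded to between 0.154 and 0.279 CPM. Within the sorted libraries no gene of the 39 had fewer than 229 counts, whereas in the whole embryos 36 had at least 10 counts in both and 19 had at least 100 in both. The libraries carry no molecular identifiers, so such floors cover counting error only.

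**Figure D1:**
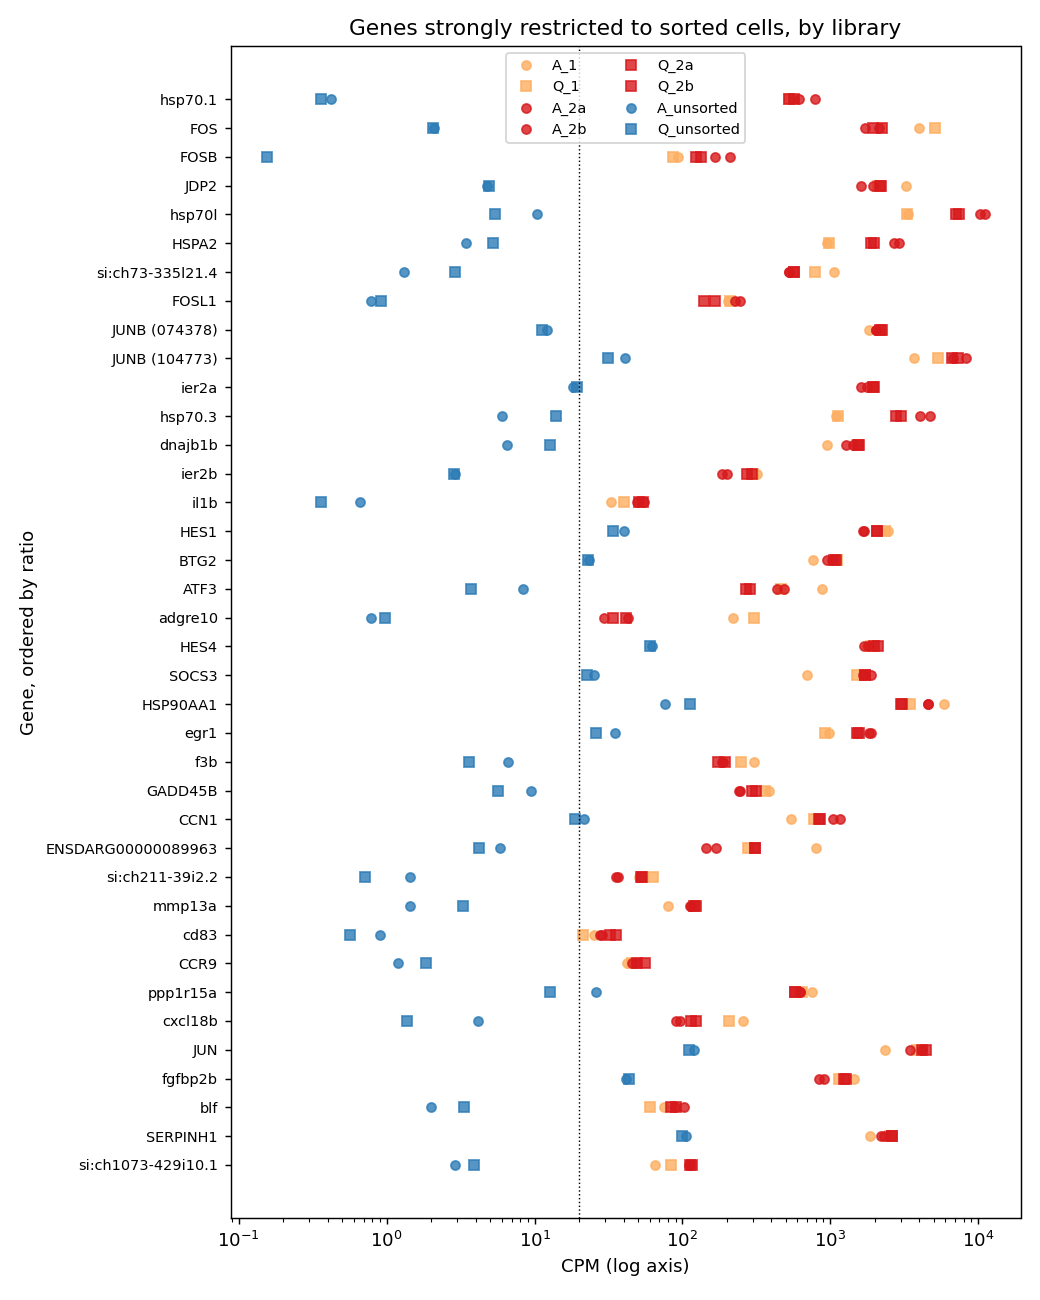
CPM of 38 of the 39 genes in each library on a log axis, with genes ordered by the ratio of lowest sorted to higher whole embryo CPM; circles are RNAqueous and squares RNeasy libraries, light orange is run 1, red run 2 and blue the whole embryos. The dotted line marks 20 CPM, and FOSB in A_unsorted, at 0 counts, cannot be drawn on a log axis.

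Together the 39 genes took 4.63% of the gene counts in A_1, 4.86% in Q_1, 5.74% and 6.16% in A_2a and A_2b, and 5.49% and 5.33% in Q_2a and Q_2b. In the whole embryos the same genes took 0.0745% in A_unsorted and 0.072% in Q_unsorted. The share was thus higher in each library of run 2 than in either library of run 1. The chaperones accounted for most of that step. They took 1.46% in A_1 and 1.35% in Q_1, 2.59% and 2.76% in A_2a and A_2b, and 2.01% and 1.96% in Q_2a and Q_2b. Among them hsp70l, hsp70.3 and HSPA2 were higher in every run 2 library than in run 1. The other chaperones overlapped between runs. The AP-1 group stayed between 1.63% and 1.94% in all 6 sorted libraries, and the other early response genes between 0.896% and 0.993%. These shares are on the CPM scale, which differs from the scaling of the tests between runs below. With that scaling 13 of the 39 genes were higher in run 2 and 26 lower. The median log2 fold change was -0.185, against -0.106 over the 4700 genes.

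**Figure D2:**
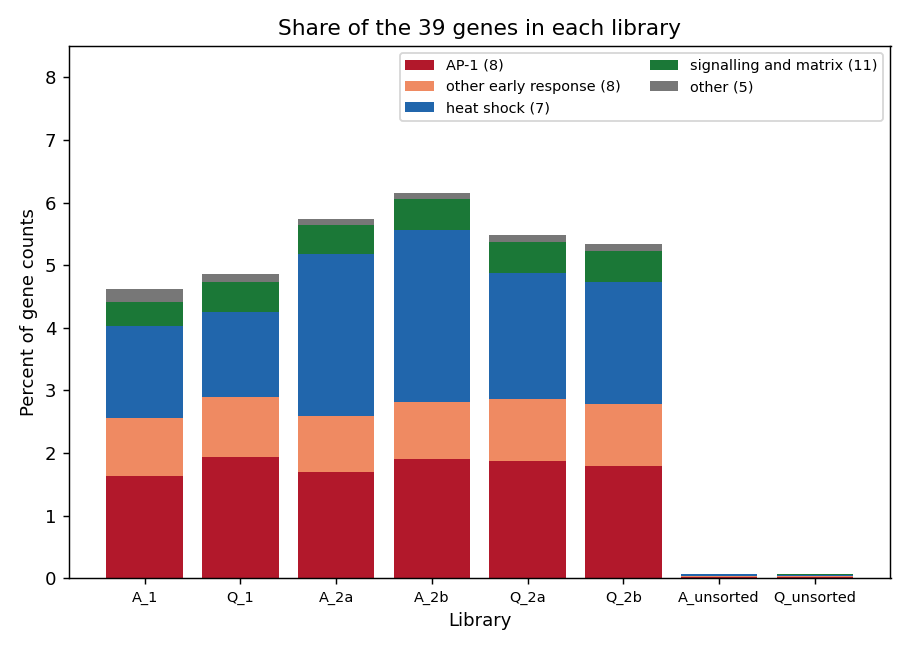
Percent of all gene counts taken by the 39 genes in each library, stacked by role, with the number of genes of each role in the legend. Sorted libraries reach 4.63% to 6.16%, and both whole embryos stay below 0.1% on the same axis. The chaperones (heat shock) make the larger part of the step between runs, and only hsp70l, hsp70.3 and HSPA2 of them did not overlap between runs.

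FOS, of the AP-1 group, reached 3998 CPM in A_1, 5078 in Q_1, 2135 and 1718 in A_2a and A_2b, and 1938 and 2245 in Q_2a and Q_2b, against 2.1 CPM in A_unsorted and 2.05 in Q_unsorted. Its lowest sorted value was 818 times the higher whole embryo value, and run 1 lay above run 2 in both kits. FOSB, a second FOS family member, was at 0 counts in A_unsorted and at 3 counts in Q_unsorted, and had 86.3 to 209 CPM in the sorted libraries, with a median of 129. Against the floor of 3 counts its ratio was at least 480. FOSL1, which encodes the FOS relative FRA-1, ranged from 140 to 245 CPM in sorted cells, with a median of 206, and was at 0.78 and 0.921 CPM in the whole embryos.

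The JUN side of the dimer was represented by 3 genes. The JUNB gene ENSDARG00000104773 had 3704 CPM in A_1, 5349 in Q_1, 6762 and 8309 in A_2a and A_2b, and 7344 and 6667 in Q_2a and Q_2b, against 40.7 and 31.3 in the whole embryos. The other JUNB gene, ENSDARG00000074378, lay in a narrow band from 1830 to 2240 CPM in sorted cells and at 12.2 and 11.3 CPM in the whole embryos. JUN itself, with 2343 to 4470 CPM in sorted cells, was also measured at 120 and 110 CPM in the whole embryos, and its ratio of 19.6 was the lowest of the AP-1 group. JDP2, a repressing partner of JUN, had 1609 to 3253 CPM against 4.74 and 4.96 CPM, a ratio of 324. ATF3, a stress-induced leucine zipper factor, had 873 CPM in A_1, 468 in Q_1, 490 and 435 in A_2a and A_2b, and 270 and 288 in Q_2a and Q_2b, with 8.4 and 3.69 CPM in the whole embryos. Its RNAqueous values were above the RNeasy values within each run.

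The other early response genes were closer to each other in their ratios. The paired genes ier2a and ier2b, short-lived nuclear early response proteins, had ratios of 82.4 and 64.6. The gene ier2a also had the smallest spread of the 39, with a coefficient of variation of 6.7% over the 4 RNA samples and a range of 1607 to 1979 CPM. HES1 and HES4, repressors that act downstream of Notch among other signals, had 1656 to 2443 and 1703 to 2088 CPM in sorted cells, and 34.1 to 40.5 and 60.7 to 62.1 CPM in the whole embryos. BTG2, an antiproliferative early response gene, ranged from 764 to 1117 CPM against 23 to 23.2, and egr1, a zinc finger factor, from 928 to 1878 CPM against 26.1 to 35.1. GADD45B (ENSDARG00000013576), a growth arrest and stress response gene, ranged from 240 to 384 CPM. The gene ppp1r15a, whose product helps to restore translation after stress, ranged from 578 to 751 CPM and differed between the whole embryos, with 26 CPM in A_unsorted and 12.8 in Q_unsorted.

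The chaperone gene hsp70.1 had 566 CPM in A_1, 529 in Q_1, 615 and 790 in A_2a and A_2b, and 565 and 523 in Q_2a and Q_2b, and 7 counts in each whole embryo, which is 0.42 and 0.358 CPM. Its lowest sorted value was 1245 times the higher whole embryo value, the largest of the 39 genes by the measure of the rule; by the ratio of means FOSB, at 1613, and FOS, at 1579, were above hsp70.1, at 1504, and FOSB rests on 3 counts. The related gene hsp70l had 3369 CPM in A_1, 3318 in Q_1, 10347 and 11064 in A_2a and A_2b, and 7422 and 7060 in Q_2a and Q_2b, against 10.4 and 5.37 CPM in the whole embryos. The gene hsp70.3 had 1087 and 1127 CPM in A_1 and Q_1, 4060 and 4715 in A_2a and A_2b, and 3020 and 2806 in Q_2a and Q_2b. HSPA2, another HSP70 family gene in the table, had 952 and 984 CPM in run 1, 2711 and 2901 in A_2a and A_2b, and 1978 and 1898 in Q_2a and Q_2b. For these 3 genes run 1 was lowest, the RNeasy libraries of run 2 intermediate and the RNAqueous libraries of run 2 highest, with no overlap.

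HSP70 genes are near-identical copies in places, and reads that aligned to more than 1 locus were left out of the counts, so the division of reads among them is uncertain. In the RefSeq gene table, in which 25 of the 39 symbols were found, hsp70.1 and hsp70.3 lay near each other with 1 gene between them. The co-chaperone gene dnajb1b, of the HSP40 family, had 951 to 1575 CPM in sorted cells and 6.54 and 12.8 in the whole embryos. HSP90AA1, the inducible HSP90 chaperone, had 5846 CPM in A_1, 3479 in Q_1, 4551 and 4606 in A_2a and A_2b, and 3008 and 3079 in Q_2a and Q_2b, so that RNAqueous was higher in each run. SERPINH1 (ENSDARG00000019949), which stood in the heat shock list but encodes a chaperone of collagen, ranged from 1865 to 2617 CPM. Its ratio of 17.7 was near the limit. A second SERPINH1 gene, ENSDARG00000075954, was not among the 39, with 30.4 to 176 CPM in sorted cells and 22.7 to 24.7 in the whole embryos.

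The signalling group held genes of inflammation, of coagulation and of the matrix, and CPM were mostly lower than those of the AP-1 group. The cytokine gene il1b had 33.1 to 55.3 CPM in sorted cells and 11 and 7 counts in the whole embryos. The chemokine gene cxcl18b had 256 CPM in A_1, 206 in Q_1, 96.7 and 91.2 in A_2a and A_2b, and 115 and 123 in Q_2a and Q_2b, with 4.14 and 1.38 CPM in the whole embryos. Both run 1 values were above all 4 of run 2. SOCS3, a feedback inhibitor of cytokine receptors, was lowest in A_1 at 691 CPM and lay between 1515 and 1878 in the other 5 sorted libraries. CCN1, a matricellular protein gene, ranged from 541 to 1163 CPM. The coagulation initiator gene f3b ranged from 173 to 307 CPM and the collagenase gene mmp13a from 80.2 to 123 CPM. The remaining receptor and binding protein genes were cd83 with 21.3 to 35.8 CPM, the chemokine receptor gene CCR9 with 42.1 to 55.7 CPM, the FGF-binding protein gene fgfbp2b with 839 to 1438 CPM, and adgre10.

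Counts of 5 genes in this group and elsewhere depended on how overlapping genes were counted. The column of counts that ignores strand drops a read that falls on 2 overlapping genes, while the 2 strand columns count it on the gene of the matching strand, and the cDNA protocol keeps no strand. For adgre10, an adhesion receptor gene, only 3.44% of the strand column counts were kept, which is 8958 of 260743 over all libraries. For dnajb1b it was 32.8%, or 123087 of 374866. The dropped reads of these 2 genes matched each other to within 0.0108% in every library, and the genes were immediate neighbours in the RefSeq gene table. FOS kept 41.8%, si:ch211-39i2.2 kept 67.6% and f3b kept 72.5%, and the other 34 genes kept more than 90%. For FOS the dropped reads matched those of the unnamed gene ENSDARG00000097234 to within 0.0415%, and for f3b those of si:dkey-61d19.4 to within 0.137%. For si:ch211-39i2.2 they matched those of BRD8, which had 25.8 to 49.2 CPM in sorted cells and up to 28.8 in the whole embryos. With the sum of the strand columns si:ch211-39i2.2 no longer met the rule, so its place among the 39 rests on how the overlap was counted. The level of these 5 genes is a lower limit in sorted cells and in whole embryos, and reads of adgre10 cannot be told apart from those of dnajb1b.

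The 5 other genes were blf, si:ch73-335l21.4, si:ch211-39i2.2, si:ch1073-429i10.1 and ENSDARG00000089963. The value of si:ch73-335l21.4 was 528 to 1054 CPM in sorted cells and 1.32 and 2.92 CPM in the whole embryos, a ratio of 181. ENSDARG00000089963 had 800 CPM in A_1, 278 in Q_1, 169 in A_2a, 145 in A_2b and 310 in both Q_2a and Q_2b, so that the RNAqueous RNA samples held both the highest and the lowest values. The limit of the rule fell in a continuous range of ratios. Just inside were si:ch1073-429i10.1 at 16.8, SERPINH1 at 17.7 and blf at 18.1, and just outside were a second GADD45B gene (ENSDARG00000027744) and cbx7a at 14.4 and ms4a17a.9 at 13.6. Of the 4700 genes, 76 reached a ratio of 8 and 18 a ratio of 32, and the median ratio was 0.868.

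**Figure D3:**
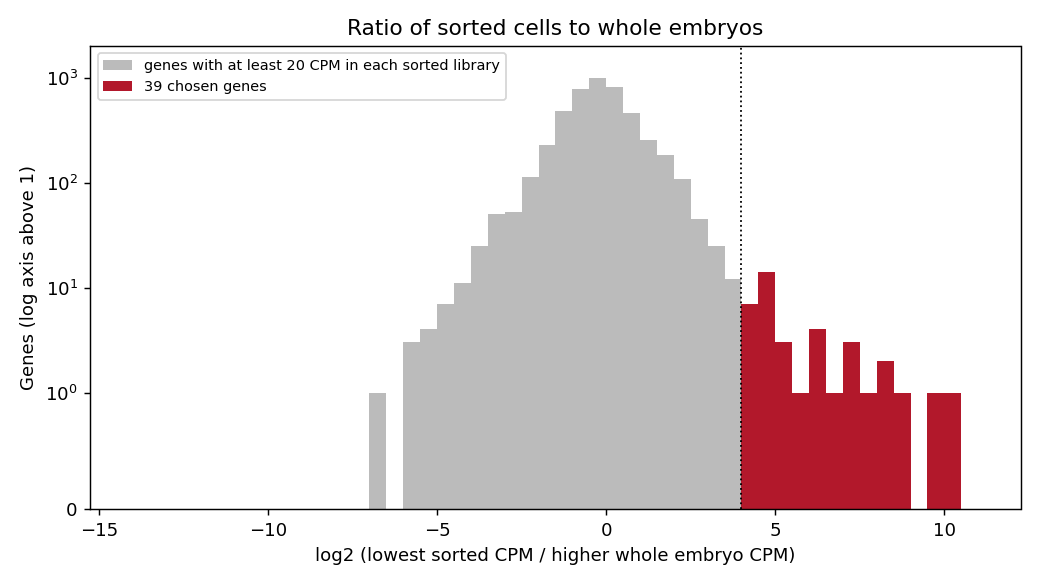
Number of genes, on an axis that is linear below 1 and logarithmic above, by log2 of the lowest sorted CPM over the higher whole embryo CPM (set to at least 3 counts), for the 4700 genes with at least 20 CPM in each sorted library. The 39 chosen genes, in red, lie right of the dotted line at a log2 ratio of 4, up to hsp70.1.

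Lists of pathway genes and of cell type markers were set beside the 39 genes, and 26 of them stood on a pathway list: 13 on the list of immediate early and AP-1 genes, 6 on that of heat shock and unfolded protein genes and 7 on that of inflammatory signalling. Another 13 stood on no list, and none stood on a list of cell type markers. Of the early gene list, 53 genes had at least 20 CPM in any library, of which 47 were higher in all 6 sorted libraries than in both whole embryos and 1 was lower. For the heat shock list the counts were 20 higher and 2 lower of 26, and for the inflammatory list 37 higher and none lower of 38. Over all 9763 genes with at least 20 CPM in a library, 28.1% were higher in every sorted library and 23.9% were lower. Since the 39 genes are part of these lists and were chosen by the same difference, nothing is read from these counts about them.

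Genes of the same lists that were not among the 39 show how far the difference extended. The early genes CEBPB, with 867 to 1391 CPM in sorted cells and 63.1 to 74.9 in the whole embryos, and JUND, with 155 to 335 and 12.6 to 16.7 CPM, were higher in every sorted library. Of the heat shock list, HSPA5 had 558 to 3035 CPM in sorted cells and 146 to 176 in the whole embryos, and XBP1 1463 to 1750 and 342 to 351. Both were higher in every sorted library, as were 20 of 26 genes of that list with those among the 39 included. The constitutive chaperone HSPA8 (ENSDARG00000068992) overlapped, with 2341 to 5148 CPM in sorted cells and 3016 to 3590 in the whole embryos. A second HSPA8 gene, ENSDARG00000037403, also overlapped, with 4.54 to 16.6 and 5.58 to 6.12 CPM. HSPD1, a mitochondrial chaperone, was lower, with 42.9 to 99.1 CPM against 111 to 141.

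Several lists of cell type markers also differed between sorted cells and whole embryos. Endothelial markers summed to 1527 to 2003 CPM in sorted cells and to 498 to 623 in the whole embryos, and 28 of 30 were higher in every sorted library. Markers of cranial neural crest and skeletal mesenchyme summed to 31219 to 104092 CPM against 11961 to 14516, with 28 of 31 higher. Leukocyte markers summed to 3079 CPM in A_1, 1298 in Q_1, 1105 and 1021 in A_2a and A_2b, and 1437 and 1451 in Q_2a and Q_2b, against 199 to 264 CPM, and 5 of 8 were higher. The differences among the sorted libraries were those of 1 gene, the lysozyme gene lyz, at 2719 CPM in A_1 and 653 to 1054 in the others, and without it the list summed to 336 to 406 CPM in sorted cells and 178 to 211 in the whole embryos. Muscle markers summed to 12567 to 25681 CPM against 114002 to 145272, and liver, gut and pancreas markers to 62.3 to 149 against 11012 to 16110. Erythroid markers overlapped, with sums of 1404 to 6426 against 1671 to 1882 CPM and 5 of 7 genes overlapping. Smooth muscle and pericyte markers summed to 273 to 371 CPM in sorted cells against 436 to 482, with 5 of 7 genes overlapping, 1 higher and 1 lower. The part of these differences in the 39 genes was not tested, and in bulk samples fewer cells of a type and less RNA per cell cannot be told apart.

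The technical replicates show the error of a single value. Between A_2a and A_2b the 39 genes differed by a median of 0.111 on the log2 scale of CPM, with a median of 0.104 over the 4700 genes, and between Q_2a and Q_2b by 0.0701, with 0.0849 over the 4700. The largest difference was that of adgre10, at 0.556 and 0.287. Over the 4 sorted RNA samples the coefficient of variation ranged from 6.7% for ier2a to 90.1% for adgre10, with a median of 22.2%, against a median of 28.3% over the 4700 genes. After adgre10, the largest were 73.4% for ENSDARG00000089963, 66.7% for hsp70.3 and 57.6% for hsp70l.

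Whether the levels of these genes differed between the 2 runs was tested over the 4 sorted RNA samples, with technical replicates summed and kit as a covariate. The rule did not compare runs, but it used the lowest CPM over both, so genes that were low in either run had been left out before this test: 54 genes met it with the sorted libraries of run 1 alone and 47 with those of run 2 alone. Of the 39 genes 2 passed, which is 5.13%, and both were lower in run 2. Of all 19639 genes tested 10.9% passed, and of the 4700 genes 6.83% passed, with 6.17% lower in run 2. The first was adgre10, with 219 and 307 CPM in A_1 and Q_1 and 29.4 to 43.2 CPM in run 2. Its log2 fold change was -3.11 ± 0.54 (SE, n = 2 RNA samples per run, edgeR's quasi-likelihood test, Benjamini-Hochberg adjusted p = 1.69e-06). With the sum of the strand columns, which counts the reads dropped above on both genes, it was -0.27 (edgeR adjusted p = 0.804), so the call rests on how the overlap with dnajb1b was counted. The second was cxcl18b, at -1.45 ± 0.52 (SE, edgeR adjusted p = 0.0491). It passed in 7 of 14 alternatives, some of which left out an RNA sample. With all 4 RNA samples kept, its edgeR adjusted p ranged from 0.0118 with the 6 libraries entered separately to 0.0916 without the library A_2a.

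Leaving out an RNA sample left 1 sample in a run, so only the size of the change is given. These fits also had no kit covariate, so run and kit were mixed in them. The median absolute log2 fold change of the 39 genes was 0.32 without A_1, 0.559 without Q_1, 0.376 without A_2 and 0.543 without Q_2. Over the 4700 genes it was 0.372, 0.585, 0.381 and 0.579 in the same order. When the 6 libraries were entered separately, as if technical replicates were separate RNA samples, 13 passed, which is 33.3% where 33% of the 4700 genes did. FOS missed the threshold at -1.49 ± 0.56 (SE, edgeR adjusted p = 0.0601), with both run 1 libraries above all of run 2. With the sum of the strand columns, which adds the reads it shares with ENSDARG00000097234, its value was -0.40 (edgeR adjusted p = 0.694), and it passed in 3 of 14 alternatives. In the other direction hsp70.3 had a log2 fold change of 1.34 ± 0.55 (SE, edgeR adjusted p = 0.0993), hsp70l of 1.05 ± 0.55 (adjusted p = 0.22) and HSPA2 of 0.92 ± 0.55 (adjusted p = 0.289). Run 1 and run 2 did not overlap in 21 of the 39 genes on the CPM scale: 9 were higher in run 1 and 12 in run 2, where of the 4700 genes 21.8% were higher in run 1 and 39.1% in run 2. The fit had 1 residual degree of freedom, and the runs also differed in RNA input and amplification, so these cannot be told apart from the cells. Of the marker lists, lyz was highest in A_1, and the sum of the neural crest and skeletal mesenchyme list, most of it from collagen and matrilin genes, was lower in A_1, at 31219 CPM, and Q_1, at 61970, than in run 2, at 76552 or more. Other genes of that list were highest in A_1, such as twist1a at 483 CPM against 234 to 313 in the other sorted libraries. The part of these in the run differences was not tested.

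**Figure D4:**
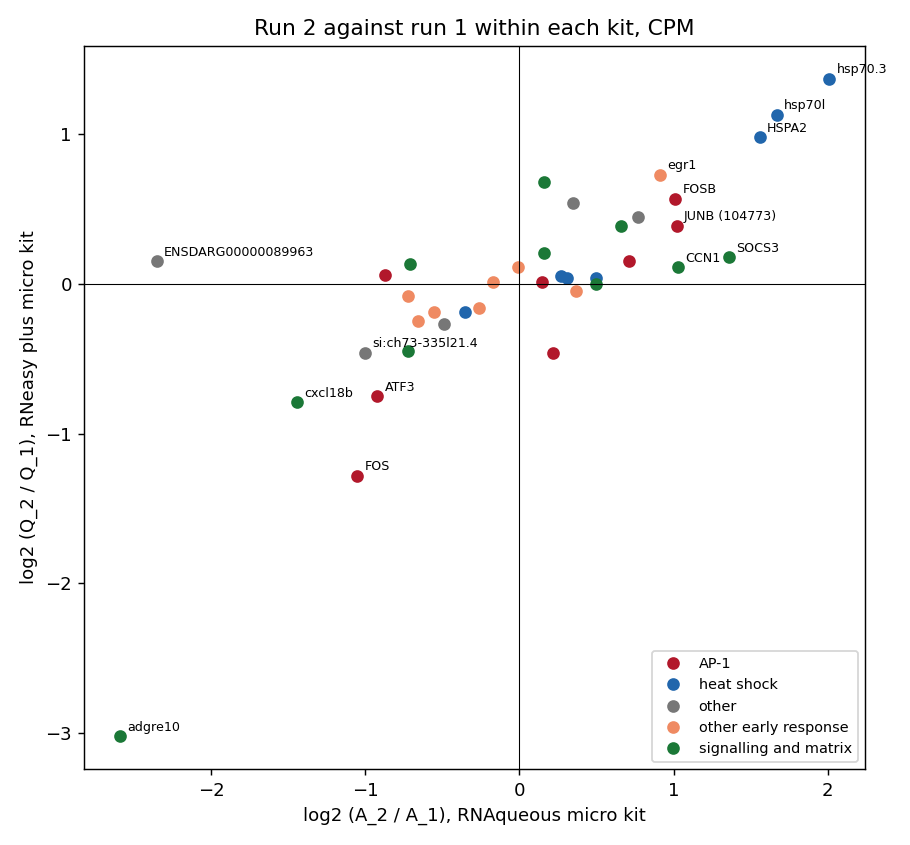
log2 ratio of mean CPM of run 2 over run 1 for 38 of the 39 genes, with the RNAqueous micro kit on the horizontal and the RNeasy plus micro kit on the vertical axis, coloured by role. Genes with a ratio of at least 0.9 in size in either kit are named: hsp70.3, hsp70l and HSPA2 are high in both kits, adgre10, FOS and cxcl18b low in both, and ENSDARG00000089963 is low with RNAqueous only, at -2.35 against 0.15.

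The kits were compared in the same fit, with run as a covariate. This fit takes the same kit difference for both runs, so opposed differences offset each other in it. Over the 4700 genes the kit differences of run 1 and run 2 were negatively correlated (Spearman -0.317). The rule used the lowest CPM over both kits, so genes low with either kit had been left out before this test. None of the 39 genes passed with edgeR's quasi-likelihood test, none had an unadjusted p under 0.05, and with DESeq2 none passed and 1 had an unadjusted p under 0.05. Of all genes tested 0.117% passed, and of the 4700 genes 0.0426%. The median absolute log2 fold change of RNeasy over RNAqueous was 0.211 for the 39 genes and 0.195 for the 4700 genes. In simulated data of this design, 41% of genes changed 4-fold were recovered, and smaller changes were not simulated. Fits that left out an RNA sample had no run covariate, so kit and run were mixed in them. Their median absolute log2 fold change for the 39 genes was 0.365 without A_1, 0.23 without Q_1, 0.392 without A_2 and 0.315 without Q_2. Over the 4700 genes it was 0.382, 0.261, 0.436 and 0.258 in the same order.

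The RNA samples A_2 and Q_2 of run 2 were compared over their technical replicates. This comparison has a small error because it holds only the spread of cDNA synthesis, library preparation and sequencing, and it sets 1 RNA sample against another, so kit and the portion of cells cannot be told apart. Here too, genes low in either RNA sample had been left out by the rule beforehand. Of the 39 genes, 25 passed, 17 higher in Q_2 and 8 lower. Of all 19027 genes tested 28.3% passed, and of the 4700 genes 54.4% passed, 34.4% higher in Q_2 and 20.1% lower. The letters of the technical replicates do not pair the RNA samples.

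The genes that were lower in Q_2 were 4 chaperones, 3 genes of the AP-1 group and CCN1. Among the 7 chaperones, 4 were lower and 2 higher: hsp70.3 by -0.48 ± 0.08 (log2, SE), HSP90AA1 by -0.48 ± 0.07, hsp70l by -0.45 ± 0.07 and HSPA2 by -0.42 ± 0.07, with edgeR adjusted p-values from 0.00011 to 0.00059. The higher chaperones were SERPINH1 at 0.33 ± 0.07 and dnajb1b at 0.32 ± 0.07, and hsp70.1 did not pass, at -0.26 ± 0.11 (edgeR adjusted p = 0.0817). In the AP-1 group 3 genes were lower, ATF3 at -0.62 ± 0.08, FOSL1 at -0.51 ± 0.09 and FOSB at -0.43 ± 0.10, and 3 were higher, JDP2 at 0.41 ± 0.09, JUN at 0.28 ± 0.09 and the JUNB gene ENSDARG00000074378 at 0.23 ± 0.07. FOS, at 0.23 ± 0.09, and the other JUNB gene, at 0.00 ± 0.09, did not pass.

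Of the other early response genes 6 of 8 were higher in Q_2 and none was lower, where 34.4% of the 4700 genes were higher and 20.1% lower. The role groups were formed after the values had been seen, so counts by group, here and above, are description only. The largest were ier2b at 0.66 ± 0.09 (edgeR adjusted p = 5.44e-05), GADD45B (ENSDARG00000013576) at 0.45 ± 0.08 and HES1 at 0.41 ± 0.07, and egr1 and ppp1r15a did not pass. In the signalling group fgfbp2b at 0.64 ± 0.07, cxcl18b at 0.45 ± 0.09 and cd83 at 0.39 ± 0.12 were higher, CCN1 at -0.28 ± 0.08 was lower and 7 did not pass. The calls on CCN1 (adjusted p = 0.0519 with edgeR), the JUNB gene ENSDARG00000074378 (0.112), BTG2 (0.0953) and si:ch73-335l21.4 (0.122) were lost with the letters as a replicate block. Those calls and the ones on JUN, dnajb1b, HES4, ier2a and cd83 were also lost when at least 1 of the 4 libraries was left out, with adjusted p-values up to 0.242, and the other 16 passed in all 7 alternatives. The call on cd83 was also lost with DESeq2 over all 4 libraries (DESeq2 adjusted p = 0.0717). None of these alternatives used the strand columns. Whether the calls on dnajb1b and si:ch211-39i2.2 depend on how overlapping genes were counted was therefore not tested. ENSDARG00000089963 had the largest change of the 39 genes, 1.09 ± 0.08 (edgeR adjusted p = 6.21e-07), with 145 and 169 CPM in A_2 and 310 CPM in each Q_2 library. In run 1 its value was higher in A_1, at 800 CPM, than in Q_1, at 278, so its direction between kits was not the same in both runs. This was not particular to this gene, as JDP2 and fgfbp2b also changed direction. Over the 4700 genes the kit differences of run 1 and run 2 were negatively correlated (Spearman -0.317).

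**Figure D5:**
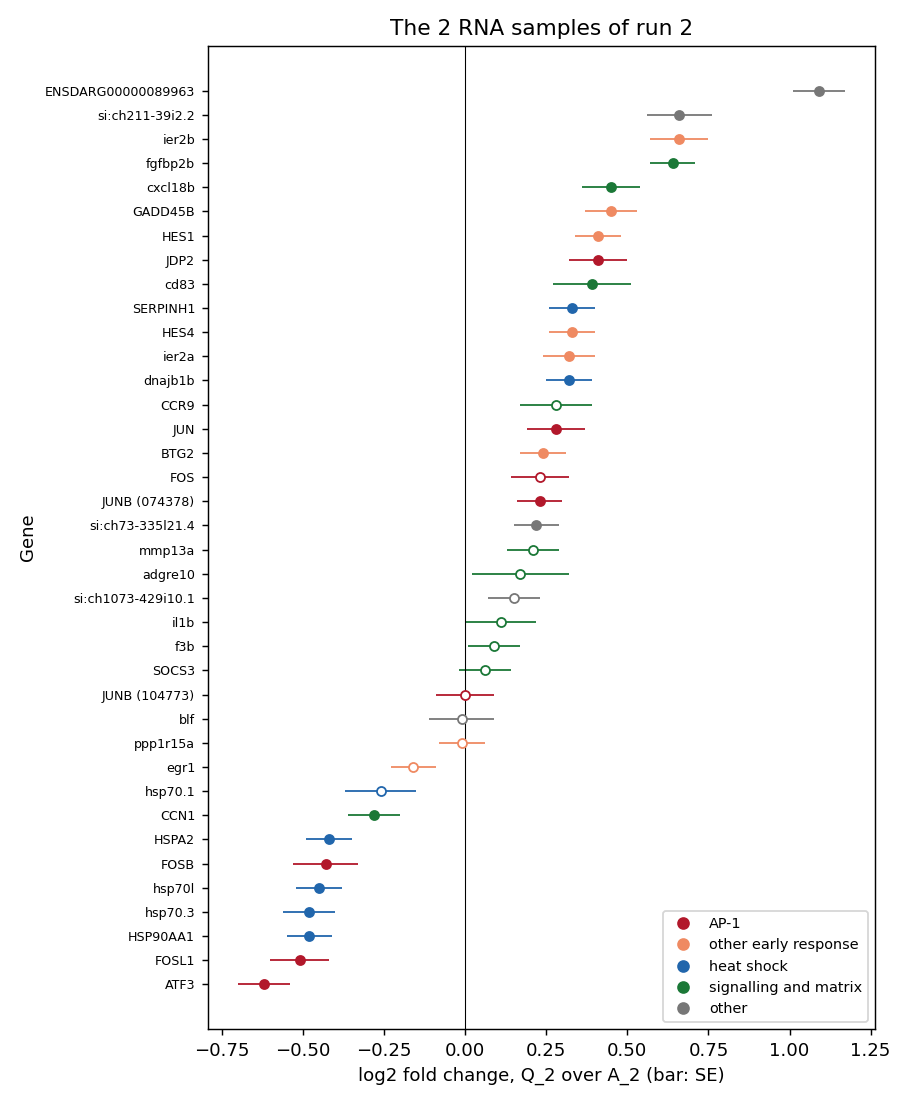
log2 fold change of Q_2 over A_2 for 38 of the 39 genes from edgeR's fit over the 4 sorted libraries of run 2, with the standard error as a bar; filled points have an adjusted p under 0.05, open points do not, and colour gives the role. ATF3 at -0.62 and ENSDARG00000089963 at 1.09 are the ends of the range, and most chaperones lie left of 0.

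The balance between the 2 strand columns was also read, since a protocol that keeps no strand should give each about the same count. In run 2, 38 of the 39 genes had 45% to 55% of their counts in the first strand column, where 99.6% of the 4700 genes did. In run 1 the number was 30 of 39, where it was 93.4% of the 4700. The gene ENSDARG00000089963 was the farthest in both runs, at 26.8% in run 1 and 41.2% in run 2. Next in run 1 were hsp70.1 at 35.5%, the gene with the largest ratio, and ier2b at 63.9%. In run 2 these were at 49.6% and 50.2%. The cause of the imbalance in run 1 was not tested.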

How the data were processed

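RNA was measured by SMART-seq v4 and Nextera XT in 8 libraries: 6 of sorted cells and 2 of whole embryos. With STAR and the GRCz10 build, the authors made and deposited whole-number counts per gene without normalization, in 1 column that ignores strand and 2 strand columns. Reads on several loci were not counted, so near-identical genes are undercounted. CPM were computed from the column that ignores strand over gene rows only. Groups came from the labels; the title of Q_1 names sample 2 and its source name sample 1, and the source name was used.

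Runs and kits were compared with edgeR version 4.0.16 in R version 4.3.3 (quasi-likelihood test, TMM, default filter, adjusted p under 0.05 by Benjamini-Hochberg) over 4 RNA samples with technical replicates summed, and A_2 and Q_2 over 4 libraries. The F statistic and the fold change gave the standard errors. Alternatives were DESeq2 version 1.42.0, other scaling and filters, the strand columns, other limits of the rule, and leaving out each library or RNA sample. For A_2 against Q_2 the strand columns, other scaling and other filters were not tried. Leaving out an RNA sample also dropped the covariate. Tests were tested on simulated data with 200 genes changed 4-fold: 38.5% were recovered for runs among 19210 genes, 41% for kits among 19223 and 93% for the RNA samples of run 2 among 18689. The common coefficient of variation was 31.8% over the 4 RNA samples and 10.2% within run 2.

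The members and lists were chosen with earlier results of these data known, and role groups after their values were seen. Named genes were to be all members on a list, the 10 with the highest median CPM and the 10 with the largest ratio, those called between runs or kits, and the 3 on each side of the limit. This gave 32 of the 39, of which 1 is counted in the totals but not reported here by name or value, and the other 7 (ppp1r15a, HES4, CCR9, cd83, fgfbp2b, si:ch211-39i2.2 and ENSDARG00000089963) were named after their values were seen, as were the listed non-members. Promoter and protein sequences were not analysed here. The RefSeq gene table is of another build (GRCz12tu) and was used only for neighbours.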

Additional observations from a re-analysis of the deposited data

How the results depend on the processing

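The number of genes meeting the rule was 76 with a ratio of 8 and 18 with a ratio of 32, and 39 to 46 when each library was left out in turn. With CPM scaled by DESeq2 size factors 39 genes met the rule, with fgfbp2b lost and DUSP2 gained. With TMM scaling 40 met it, with DUSP2 gained. Of the 39 chosen genes, 2 passed between runs, where 6.83% of the 4700 genes did. With DESeq2 4 passed, where 5.3% of the 4700 genes did. With no filter on low counts 1 passed (4.51% of the 4700), and with the sum of the strand columns 0 (4.17%). With the 6 libraries entered separately 13 passed (33% of the 4700). When a technical replicate library was left out 1 to 3 passed (2.09% to 7.57%). Without the covariate (no replicate block) 2 passed (4.36%). Between kits 0 passed when a technical replicate library was left out (0.0213% to 0.0426% of the 4700). Fits without an RNA sample had no covariate, and for these only the size of the change is given above. Between A_2 and Q_2, 21 of the 39 genes passed with the letters as a replicate block (50.7% of the 4700 genes), in place of 25 (54.4%). With the letters crossed 29 passed (57%). The strand columns, other scaling and other filters were not tried for A_2 against Q_2. The crossed alternative was chosen after seeing the data because same-letter deviations were negatively correlated (Spearman -0.33 over 4700 genes). The letters name portions of different RNA. Of the 27 calls on single genes, 16 passed in every alternative, 29 of the values under an alternative missed the threshold and 0 changed sign. With 1 residual degree of freedom, and 38.5% of simulated 4-fold changes recovered, genes that did not pass between runs cannot be taken as equal.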
